A study of Citrus sinensis with 2 samples.

Results

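The copper protein miRNAs miR397, miR398, miR408 and miR857 were described in leaves of Mg-deficient and Mg-sufficient sweet orange seedlings. They were taken by name from the deposited table of known miRNAs, and all 4 were among its 1215 names. Small RNA had been sequenced from fully expanded leaves of Citrus sinensis (L.) Osbeck cultivar Xuegan, with 1 library per treatment. The Mg-deficient library (LD) came from seedlings given 0 mM MgSO4 and the Mg-sufficient library (LS) from seedlings given 1 mM MgSO4 for 16 weeks, both with otherwise the same nutrient solution, copper included. The seedlings were transplanted at 5 weeks of age and treatment began 10 weeks later. Sulfate was kept equal with sodium sulfate. Leaves of 5 plants were mixed for each library, so that the spread between plants was not measured. The sample labels name the tissue as leaves, although 1 sentence of their RNA extraction text names roots.

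In plants, miRNAs are loaded onto an Argonaute protein and direct the cleavage or repression of transcripts with a matching site. When copper is scarce in Arabidopsis, the transcription factor SPL7 raises these 4 miRNAs, which lower the transcripts of copper proteins the plant can spare. The copper is thereby left for plastocyanin of the photosynthetic electron transport chain. MiR397 and miR857 act on laccases, multicopper oxidases that polymerize lignin in the cell wall. MiR398 acts on the copper/zinc superoxide dismutases CSD1 and CSD2, which detoxify superoxide in the cytosol and the chloroplast, and on the copper chaperone that supplies them. MiR408 acts on plantacyanin, a small blue copper protein of the cell exterior, and on laccases. The transcripts of these targets were not measured in the data used here.

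A mature sequence is listed by the study for 3 of the 4 miRNAs, and these sequences are shown because their seeds and first bases are compared next. Bases 2 to 8, the seed, are in capitals, written from the 5′ end.
miR397: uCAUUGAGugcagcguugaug
miR398: gGGGCGACaugagaucacaug
miR408: aCGGGGAAcaggcagagcaug
Each is 21 nt long. No sequence of miR857 was found in the list. The seeds of the 3 miRNAs differed from each other, and none was shared with another of the 690 names that have a listed sequence. Over an overlap of 17 nt or more, the closest other listed sequence had 5 mismatches to miR398, 6 to miR397 and 6 to miR408. None of the listed names was therefore near-identical to them, with a limit of 2 mismatches. Names without a listed sequence could not be compared. The listed miR397 begins with U, the base preferred by the Argonaute protein AGO1, as did 133 (46.3%) of the 287 listed names that passed the abundance filter described below. The listed miR398 begins with G, as did 30 (10.5%) of them, and the listed miR408 with A, as did 87 (30.3%).

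From general knowledge of these families, the listed miR397 is the strand that guides the cleavage of laccase transcripts. The listed miR398 and miR408 belong to the opposite arm of the precursor from the strand that guides cleavage in Arabidopsis. The guide strand of miR398 begins with U there, and the listed one does not. No precursor sequence was used here to place the listed sequences, and whether the counts of miR398 and miR408 hold reads of both arms is not given in the sources used here. The citrus genes named in RefSeq (assembly DVS_A1.0, used for names only) are MIR397, MIR398A, MIR398B and MIR408, among 129 miRNA genes. A gene for miR857 was not found in that table. A count for miR398 cannot be divided between MIR398A and MIR398B.

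The depth was 20328011 clean reads in the Mg-deficient and 22218850 clean reads in the Mg-sufficient library. Summed over the known names, counts equalled 14.8% of the clean reads in the Mg-deficient library and 22.9% in the Mg-sufficient library. The study's summary of reads gives the clean-read totals, and the miRNA reads with them, to the opposite treatments. At each total its miRNA reads are fewer than the summed counts, more so at the smaller total. The summed counts therefore need not be shares of reads, and the reason was not tested. The treatments here follow the sample labels and the deposited columns, whose normalized values fit the totals above. As another library size, the totals alone were also exchanged, although the deposited normalized values match the totals as given above. This is not the same as exchanging the libraries, which would give every log2 ratio the opposite sign. The libraries were not exchanged here. A normalized read-count is given in TPM, the count per 1000000 clean reads of the library. Clean reads include rRNA, to which the study's summary gives a larger share at the smaller total than at the larger one. What this does to the TPM values was not tested. Intervals are 95% intervals and cover counting error only. PCR copies were not marked by molecular identifiers, so this error may be larger than the intervals show. Each log2 ratio has the Mg-deficient library on top and the Mg-sufficient library below. The abundance filter asked for 10 TPM or more in either library. A miRNA that passed it was called when its log2 ratio was beyond 1.5 in either direction and the one-sided Audic-Claverie tail was below 0.01. The smaller of the 2 tails was taken each time, so the side was not fixed beforehand. This tail is a comparison of 2 sets of reads rather than of the treatments, and there was no spread between replicates to set a difference against.

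MiR398 was called higher in the Mg-deficient library, and was the only called member. MiR397 had a smaller positive log2 ratio, and miR408 was at almost the same level in both libraries. MiR857 was below the abundance filter in both libraries. Of the 4 miRNAs, 3 passed the filter. Over the 324 known names that passed, 28.1% were called higher and 25.6% were called lower, so that 1 call among 3 members is close to the share of all names. The median log2 ratio of the 3 members was 0.78, and that of all names that passed was -0.30. Scaled to all known miRNA counts, 114 names were called higher and 65 lower, in place of 91 and 83.

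**Figure D1:**
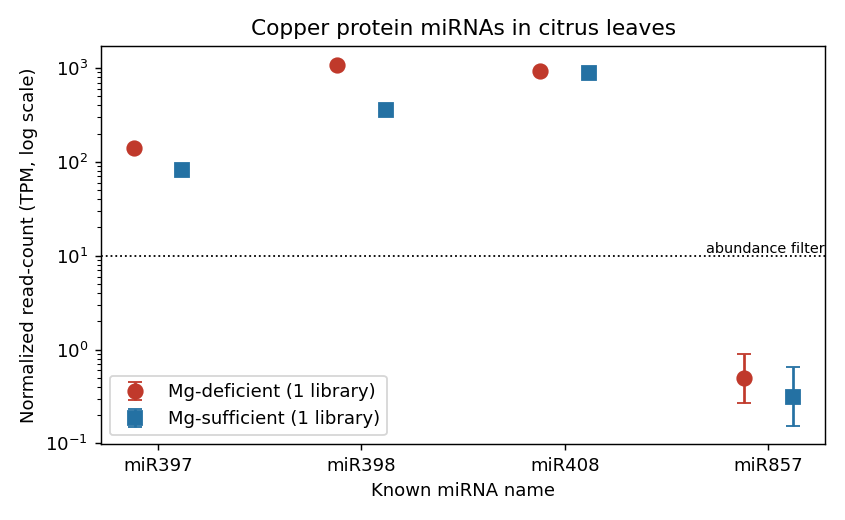
Normalized read-count (TPM, log axis) of each copper protein miRNA in the Mg-deficient library (circles) and the Mg-sufficient library (squares), 1 library each. Bars are 95% Wilson intervals of counting error and are smaller than most symbols. MiR398 is at 1090 and 361 TPM, miR408 at 921 and 894 TPM, and miR857 lies below the dotted line of the abundance filter in both libraries.

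MiR398 had 22159 counts in the Mg-deficient and 8029 counts in the Mg-sufficient library. These are 1090 TPM (1076 to 1105, Wilson interval) in the Mg-deficient library and 361 TPM (354 to 369) in the Mg-sufficient library. The log2 ratio was 1.59 (1.56 to 1.63), a 3.02-fold higher level in the Mg-deficient library. Its rank by count among all known names was 22 in the Mg-deficient and 34 in the Mg-sufficient library. The log2 ratio lies close to the threshold of 1.5. It was larger with the other library sizes tried, apart from the exchanged clean-read totals, with which it was 1.34 and the call was lost.

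Of the 174 names called in either direction, 19 had at least 10 TPM in both libraries, as miR398 did. Among the 149 names with at least 10 TPM in both libraries, 7.38% (11 names) were called higher, and miR398 was 1 of them. The other 10 had larger log2 ratios than miR398. MiR398 was therefore the smallest of these calls.

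MiR397 had 2855 counts in the Mg-deficient and 1816 counts in the Mg-sufficient library. This corresponds to 140 TPM (135 to 146) in the Mg-deficient library and 81.7 TPM (78.1 to 85.6) in the Mg-sufficient library. The log2 ratio was 0.78 (0.70 to 0.87), which is 1.72-fold. The difference exceeded counting error, with a one-sided Audic-Claverie exact tail of p = 5.98e-75 between the libraries, but the log2 ratio was short of the threshold and miR397 was not called. A p-value below 0.01 was found for 91% of the names that passed the filter, so that the p-value alone sets few names apart. With a linear ratio of 1.5 as the threshold, miR397 was called higher, as were 34% of the names that passed. In rank, miR397 was 66 in the Mg-deficient and 76 in the Mg-sufficient library.

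MiR408 had 18728 counts in the Mg-deficient and 19871 counts in the Mg-sufficient library. The levels were 921 TPM (908 to 935) in the Mg-deficient library and 894 TPM (882 to 907) in the Mg-sufficient library, and the log2 ratio was 0.04 (0.01 to 0.07). At this depth even a 1.03-fold difference exceeded counting error in the one-sided Audic-Claverie exact tail (p = 0.0018 between the libraries), and miR408 was not called. The direction of so small a ratio depended on the library size. It was 0.38 under TMM scaling by edgeR, 0.41 under the size factors of DESeq2 and 0.68 when scaled to all known miRNA counts, but -0.21 with the clean-read totals exchanged. In rank, miR408 was 26 in the Mg-deficient and 19 in the Mg-sufficient library.

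MiR857 had 10 counts in the Mg-deficient and 7 counts in the Mg-sufficient library. The levels of 0.492 TPM (0.267 to 0.906) in the Mg-deficient library and 0.315 TPM (0.153 to 0.650) in the Mg-sufficient library have overlapping intervals. Its log2 ratio of 0.64 has an interval from -0.90 to 2.27, which holds no change as well as changes past the threshold. A difference was not detectable at this depth (p = 0.252, one-sided Audic-Claverie exact tail between the libraries). MiR857 did not pass the filter. Known names were matched by the authors with up to 2 mismatches, and whether its few reads carry the miR857 sequence itself was not tested.

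**Figure D2:**
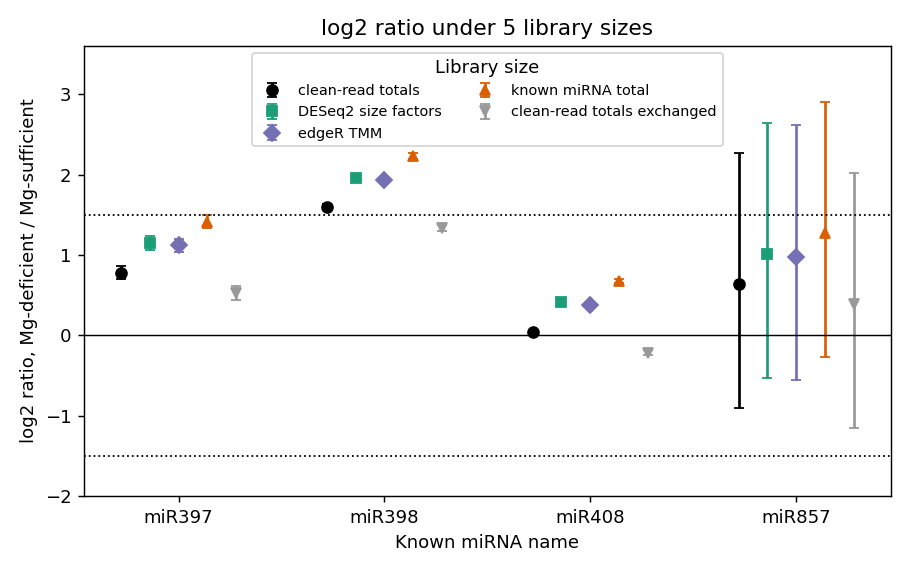
Log2 ratio (Mg-deficient over Mg-sufficient) for each copper protein miRNA, with each of 5 library sizes. Bars are 95% intervals of counting error and dotted lines mark the threshold of 1.5. MiR398 lies between 1.34 and 2.23, miR397 between 0.52 and 1.42 and miR408 between -0.21 and 0.68, and the interval of miR857 spans 0 with each library size.

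By level, the order in the Mg-deficient library was miR398, miR408, miR397 and miR857, and the intervals of neighbours did not overlap. In the Mg-sufficient library miR408 was above miR398, followed by miR397 and miR857, again without overlap. These are orders of reads, and how many reads a molecule gives can differ between sequences. Summed, the 4 miRNAs had 43752 counts (2152 TPM) in the Mg-deficient and 29723 counts (1338 TPM) in the Mg-sufficient library, a 1.61-fold ratio. As a share of all known miRNA counts they reached 1.46% in the Mg-deficient library and 0.583% in the Mg-sufficient library, a 2.50-fold ratio. Of the summed counts, miR398 held 50.6% in the Mg-deficient and 27.0% in the Mg-sufficient library. The share of miR408 was 42.8% in the Mg-deficient and 66.9% in the Mg-sufficient library. MiR397 held 6.53% in the Mg-deficient and 6.11% in the Mg-sufficient library.

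The ratio of 2 miRNAs within a library does not depend on the library size, and all 6 pairs of the 4 miRNAs were compared in this way. For 1 count of miR408 there were 1.18 counts of miR398 (1.16 to 1.21) in the Mg-deficient library and 0.404 (0.394 to 0.415) in the Mg-sufficient library. The quotient of these ratios was 2.93 (2.83 to 3.03, conditional exact interval), so that miR398 and miR408 changed places between the libraries whichever library size is used. For 1 count of miR397 there were 7.76 counts of miR398 (7.46 to 8.07) in the Mg-deficient and 4.42 (4.20 to 4.65) in the Mg-sufficient library, a quotient of 1.76 (1.65 to 1.87). MiR397 was also higher relative to miR408, with 0.152 counts for each count of miR408 in the Mg-deficient and 0.0914 in the Mg-sufficient library, a quotient of 1.67 (1.57 to 1.78). In all 3 pairs the quotient differed from 1 by more than counting error. The 3 pairs with miR857 gave quotients with intervals that include 1, such as 0.624 to 5.62 for miR398 over miR857.

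**Figure D3:**
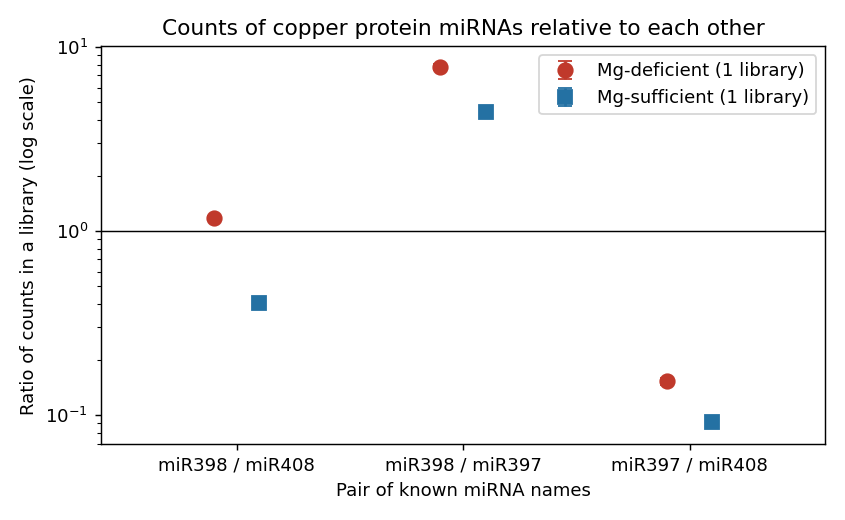
Counts of 1 copper protein miRNA divided by those of another in the same library (log axis), in the Mg-deficient library (circles) and the Mg-sufficient library (squares). Bars are 95% exact intervals of counting error and are mostly hidden by the symbols. The ratio of miR398 to miR408 is 1.18 in the Mg-deficient library and 0.404 in the Mg-sufficient library, on either side of the line at 1.

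The members were then set beside 22 miRNA names that are found in most flowering plants, such as miR156, which acts on SPL transcription factors, and miR166, which acts on leaf polarity genes. Of these, 18 passed the filter, 3 had a log2 ratio above 0 and 15 had one below 0. Only miR395 was called higher, while miR156, miR164 and miR535 were called lower. Over all 324 names that passed, 28.1% were called higher and 25.6% were called lower. The median log2 ratio of the 18 conserved names was -0.71. The log2 ratio of miR398 was 2.30 above this median, that of miR397 was 1.49 above it and that of miR408 was 0.75 above it, whichever library size is used. MiR398 was above 17 of the 18 conserved names, miR397 above 16 and miR408 above 15. Among the 18 conserved names, 3 were above miR408. They were miR482, which acts on disease resistance genes, with 0.39, miR160, which acts on auxin response factors, with 0.82, and miR395. No test of the difference between the members and the conserved names was made, since the names are not replicates. Of the conserved names below the filter, miR319 had a log2 ratio of 1.91 (0.81 to 3.17), above that of miR398. It had 31 counts in the Mg-deficient and 9 counts in the Mg-sufficient library. The others, miR394, miR399 and miR827, had log2 ratios below 0.

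**Figure D4:**
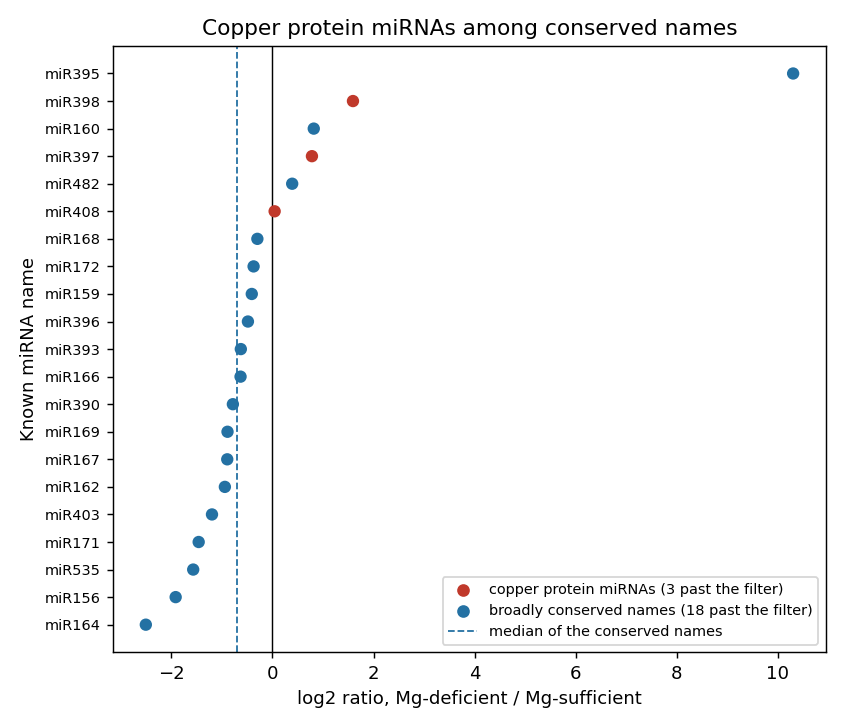
Log2 ratio (Mg-deficient over Mg-sufficient) for the 3 copper protein miRNAs and the 18 broadly conserved names that passed the abundance filter, with clean-read totals as the library size. The copper protein miRNAs lie at 1.59, 0.78 and 0.04, to the right of the median of the conserved names at -0.71 (dashed line).

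Of 6 miRNAs of mineral nutrition, 2 passed the filter, of which 1 was called higher, beside 28.1% of the 324 names that passed. The called name was miR395, which acts on ATP sulfurylases and a sulfate transporter. It had 3640 TPM in the Mg-deficient and 2.88 TPM in the Mg-sufficient library, a log2 ratio of 10.30. MiR395 and miR169 were the names of this list that passed the filter. MiR169, which acts on subunits of the transcription factor NF-Y, had 19.5 TPM in the Mg-deficient and 36.1 TPM in the Mg-sufficient library and was not called. MiR399 and miR827, known for phosphate starvation, had 8 and 137 counts in the Mg-deficient library, against 23 and 170 counts in the Mg-sufficient library. MiR2111 had 30 counts and miR826 had 126 counts in the Mg-deficient library, against 118 and 152 counts in the Mg-sufficient library. None of these 4 reached the filter.

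Another 3 names have been linked to copper proteins, of which 1, miR6426, passed the filter and was called higher. Over all 324 names that passed, 28.1% were called higher. MiR528, which acts on copper oxidases and plantacyanin-type proteins in grasses, is listed with the sequence uGGAAGGGagcugcagagaug, which is shown because its role resembles that of miR408 while its seed differs. It had 90 counts (4.43 TPM) in the Mg-deficient and 98 counts (4.41 TPM) in the Mg-sufficient library, a log2 ratio of 0.01 (-0.42 to 0.43). MiR1444, which acts on polyphenol oxidases in poplar, had 18 counts in the Mg-deficient and 11 counts in the Mg-sufficient library, a log2 ratio of 0.84 (-0.32 to 2.07). Neither passed the filter, and both intervals include 0. MiR6426 has a laccase among the targets predicted in the study and is listed as aGUGGAAGauggaaguguaga. It had 3403 counts (167 TPM) in the Mg-deficient and 188 counts (8.46 TPM) in the Mg-sufficient library. Its log2 ratio of 4.31 (4.09 to 4.53) was above those of all 4 copper protein miRNAs. Its seed differed from the 3 seeds shown for miR397, miR398 and miR408. From general knowledge, as stated above, the listed miR398 and miR408 are not the strands that guide cleavage in Arabidopsis. Setting the seed of miR528 or miR6426 against theirs therefore does not compare guide strands.

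The names most like each member were sought among 269 names that passed the filter with a count in both libraries, by the distance in log2 TPM over the 2 libraries. Nearest to miR398 was miR5224, with 1128 TPM in the Mg-deficient and 477 TPM in the Mg-sufficient library, at a distance of 0.40. Next to it was miR3627, with 602 TPM in the Mg-deficient and 337 TPM in the Mg-sufficient library, at 0.86. MiR5386 and miR5052 were nearest to miR397, at distances of 0.43 and 0.58, with log2 ratios of 0.21 and 0.65. MiR3446 and miR5766 were nearest to miR408, at 0.65 and 0.72, with log2 ratios of -0.05 and 0.07. No name nearest to miR397 or miR408 was past the threshold, and miR5224, with a log2 ratio of 1.24, and miR3627, with 0.84, were not either. Likeness over 2 libraries rests on 2 values for each name, and the same 2 values give the log2 ratio. A log2 ratio close to that of the member therefore follows from how these names were chosen.

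**Figure D5:**
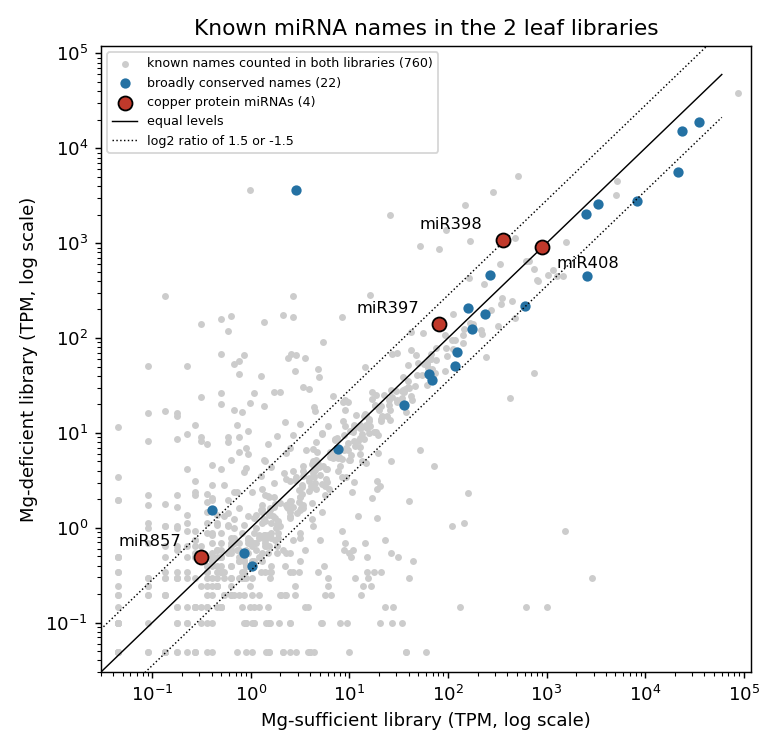
Normalized read-count (TPM, log axes) in the Mg-deficient library against the Mg-sufficient library for the 760 known names counted in both, with the 22 broadly conserved names and the 4 copper protein miRNAs marked. The solid line is equality and the dotted lines are log2 ratios of 1.5 and -1.5. MiR398 lies just above the upper dotted line, miR397 between it and equality, and miR408 on equality.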

How the data were processed

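Small RNA of 1 Mg-deficient and 1 Mg-sufficient leaf library was sequenced by Illumina. The authors mapped clean reads to the C. sinensis genome of JGI with SOAP, removed rRNA, tRNA, snRNA and snoRNA, matched the rest to miRBase 21 plant miRNAs allowing 2 mismatches, and deposited raw counts for each name. The authors also deposited RPM values (called TPM in the paper), equal to those computed here within 0.0001. How reads matching several names were counted is not given in the sources used here. The deposited comparison table holds the authors' log2 ratios and p-values for 728 names, which were not used; its clean-read totals were. For log2 ratios, 0.01 TPM stood in for a count of 0. With 1 library per treatment no replicated test could be fitted.

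The members and lists were chosen with earlier results of these data known. Named miRNAs are the members, the fixed lists, the 2 names nearest to each member that passed the filter, and near-identical names. Intervals were Wilson for TPM, Clopper-Pearson for log2 ratios and conditional exact for quotients. Alternatives were 4 other library sizes (edgeR TMM, DESeq2 size factors, known miRNA total, exchanged totals), 1 added count, other thresholds and filters, Fisher's exact test and summed near-identical names. Sequences were those listed by the study. Python 3.11.15, scipy 1.17.1, R 4.3.3, edgeR 4.0.16 and DESeq2 1.42.0 were used.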

Additional observations from a re-analysis of the deposited data

How the results depend on the processing

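MiR398 was called with every alternative except the exchanged clean-read totals (log2 ratio 1.34). MiR397 was called only with the linear threshold of 1.5 (log2 ratio 0.78). With exchanged totals, miR408 was at -0.21 and miR528 at -0.25, on the other side of 0. Relative to the clean-read totals, all log2 ratios shifted by 0.63 with the total count of known miRNAs, by 0.34 with TMM, by 0.37 with DESeq2's size factors and by -0.26 with exchanged totals. The calls numbered 226 higher and 308 lower without an abundance filter, 11 and 8 with 10 TPM in both libraries, and 49 and 23 with 50 TPM in 1 library. With the linear threshold 129 were lower. Fisher's exact test and 1 added count changed none of the members' calls. No near-identical name was found to sum among the names with a listed sequence. MiR857 has no listed sequence and was not compared. For miR857, depth limits the comparison. No paired analysis was possible because each treatment had 1 library.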
